A study of Mus musculus with 13 samples.

Results

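Malat1, Neat1, Miat, Kcnq1ot1, Airn, Meg3, Rian and H19 are nuclear or imprinted long noncoding RNAs, and they are described here across the nuclei and cytoplasms of mouse oocytes with and without the RNA helicase MTR4. The genes were taken by symbol, all 8 matched, and they are 8 of the 23235 genes of the deposited table. The table has 4 columns, which are WT nucleus, MTR4-null nucleus, WT cytoplasm and MTR4-null cytoplasm, and its values are FPKM by name, that is, read signal per length of a gene. The labels list 13 libraries of polyadenylated RNA, each from 10 nuclei or 10 cytoplasms parted by micromanipulation and prepared with Smart-seq2. Smart-seq2 is a low-input method that primes on poly(A) and does not mark strand. WT oocytes labelled day 14 gave 2 nuclear and 2 cytoplasmic libraries. Those labelled day 21 gave 3 and 2 in WT, and 2 and 2 in MTR4-null. How MTR4 was removed, by which driver and from which stage, was not given in the sources used here.

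The 4 columns hold no separate libraries, so no spread between replicates, no standard deviation and no test can be given for any value below. The WT columns name no day, so genotype and age cannot be told apart in any comparison of null with WT. Column totals were lowest for WT nuclei (594034) and highest for WT cytoplasms (6637350), so the columns are not on a common scale, and the read depth behind them is unknown. Differences are therefore given relative to the median gene: a column's median ratio to the columns' geometric mean was divided out, 1 was added, and log2 differences were taken. Such a difference cannot show a change in total RNA and understates the change of low genes, and the difference of the values as deposited is given beside it. Skiv2l2, which encodes MTR4, had deposited values of 13.3 (WT) and 3.54 (null) in the nuclei and 187 (WT) and 4.36 (null) in the cytoplasms. Of the labelled cell type, 12 oocyte markers summed to between 1.72% and 3.25% of a column's total. The 13 granulosa cell markers summed to 0.00288% (WT) and 0.00172% (null) of the nuclear columns and 0.00714% (WT) and 0.00947% (null) of the cytoplasmic ones, with 1, 4, 0 and 0 of them listed at 0, and Inha (1.92, 0, 253 and 86.8) and Cyp19a1 (6.79, 2.45, 78.0 and 15.4) weighed heavily in these sums. The 10 theca and stroma markers summed to at most 0.000358% and the 6 blood markers to at most 0.000330% of any column. The part of such cells in the values below was not tested, and fewer cells of a type and less RNA per cell cannot be told apart in pooled samples.

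Malat1 is an abundant RNA of nuclear speckles, Neat1 is the scaffold of paraspeckles, and Miat is a nuclear RNA best known from neurons. Kcnq1ot1 and Airn are made mainly from the paternal allele, run antisense to Kcnq1 and Igf2r, and silence imprinted genes beside them, while Meg3, Rian and H19 are made mainly from the maternal allele. Growing oocytes are the cells in which maternal imprints are set, by DNA methylation that covers the Kcnq1ot1 and Airn start regions. MTR4 unwinds nuclear RNA and passes it to the exosome, which degrades it from its 3' end.

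The 3' end matters for this class, because Malat1 and the long form of Neat1 are known to end without an added poly(A) tail: RNase P cuts behind an A-rich tract in the RNA itself, and the tract folds with U-rich stretches into a triple helix. Their ends are shown from the longest GENCODE M21 transcript (GRCm38), with any run of at least 8 A in capitals. The Malat1 transcript has 6983 bases, and the stretch runs from base 6614 to 6710. The Neat1 transcript has 20771 bases, and the stretch is its last 60.
Malat1: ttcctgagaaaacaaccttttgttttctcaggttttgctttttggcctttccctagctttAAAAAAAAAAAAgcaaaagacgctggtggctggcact
Neat1: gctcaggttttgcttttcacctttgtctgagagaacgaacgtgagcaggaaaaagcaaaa
The stretch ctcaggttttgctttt, 16 bases of the U-rich part, stands in both, from base 6640 of Malat1 and base 20713 of Neat1. Of 55341 genes, searched by their longest transcript, 2 hold it, and these are Malat1 and Neat1. The A run in Malat1 is 12 long, at bases 6674 to 6685, and it is the 1 such run in that transcript. The Neat1 transcript has none. Because the libraries were primed on poly(A), 2 examples of runs of A inside other RNAs, in Kcnq1ot1 and Rian, are shown with their surroundings. Kcnq1ot1 (93092 bases, shown from 69540 to 69630) has 30 runs, the longest of 41. Rian (8089 bases, shown from 5284 to 5348) has 2, the longest of 15.
Kcnq1ot1: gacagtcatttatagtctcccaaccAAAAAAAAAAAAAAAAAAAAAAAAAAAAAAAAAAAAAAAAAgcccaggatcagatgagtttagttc
Rian: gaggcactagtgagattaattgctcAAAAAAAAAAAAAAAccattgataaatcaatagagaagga
No run of that length is in the longest annotated transcripts of Miat (9163 bases), Airn (1375 bases) or H19 (2286 bases). The Airn gene spans 118826 bases, so most of it was not searched, whereas the Kcnq1ot1 transcript covers its whole gene span. Of all 55341 transcripts 18.0% hold a run, and the share was 14.7% among transcripts of a length like that of Airn, 53.0% for Malat1 and 58.4% for Rian. It was 60.9% for Neat1, 61.9% for Miat and 24.9% for H19. For Kcnq1ot1 it was 100%, over 5 transcripts. Whether the reads of these genes began at such runs was not tested.

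Start regions are shown for Malat1, Kcnq1ot1, Airn and Meg3, the RNAs above 1 in every column, as 300 bases from RefSeq (GRCm38.p6), 250 before the start and 50 after it, read along the gene. Capitals mark CG, where mammalian DNA is methylated, and CCAAT or its reverse complement ATTGG, the letters bound by NF-Y; the motifs do not overlap each other.
Malat1 (chr19:5802623-5802922, minus strand): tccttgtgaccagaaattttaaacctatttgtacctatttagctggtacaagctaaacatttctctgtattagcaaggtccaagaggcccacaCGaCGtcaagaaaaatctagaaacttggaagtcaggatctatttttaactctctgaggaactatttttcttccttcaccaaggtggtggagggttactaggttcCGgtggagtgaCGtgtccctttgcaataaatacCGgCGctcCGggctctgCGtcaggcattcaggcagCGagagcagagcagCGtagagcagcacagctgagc
Kcnq1ot1 (chr7:143296498-143296797, minus strand): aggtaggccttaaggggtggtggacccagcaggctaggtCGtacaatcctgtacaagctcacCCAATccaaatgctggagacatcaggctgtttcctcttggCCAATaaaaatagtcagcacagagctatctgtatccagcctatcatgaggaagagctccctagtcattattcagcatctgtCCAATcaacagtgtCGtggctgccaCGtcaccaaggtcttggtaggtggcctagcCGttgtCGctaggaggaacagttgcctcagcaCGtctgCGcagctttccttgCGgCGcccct
Airn (chr17:12741061-12741360, plus strand): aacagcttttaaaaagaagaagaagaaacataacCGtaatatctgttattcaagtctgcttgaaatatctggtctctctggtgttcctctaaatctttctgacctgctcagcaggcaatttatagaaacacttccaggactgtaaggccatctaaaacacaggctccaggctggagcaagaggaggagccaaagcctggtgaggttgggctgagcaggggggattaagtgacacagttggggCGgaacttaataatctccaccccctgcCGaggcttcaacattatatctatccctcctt
Meg3 (chr12:109540746-109541045, plus strand): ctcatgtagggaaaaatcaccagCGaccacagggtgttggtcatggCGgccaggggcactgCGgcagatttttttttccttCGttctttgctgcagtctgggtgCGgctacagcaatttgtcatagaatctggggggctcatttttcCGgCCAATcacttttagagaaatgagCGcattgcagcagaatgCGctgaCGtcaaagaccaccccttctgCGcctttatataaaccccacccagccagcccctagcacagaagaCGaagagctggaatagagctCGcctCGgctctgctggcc
The windows hold 10 CG in Malat1, 9 in Kcnq1ot1, 3 in Airn and 13 in Meg3, beside a median of 7 over 32851 windows of the same length. At least as many CG are found in 43.5%, 45.8%, 76.7% and 37.9% of all windows, so none of the 4 stands far from the rest by this count. The Kcnq1ot1 window holds CCAAT 3 times, and 3.37% of all windows hold it at least that often. The Meg3 window holds it 1 time, the Malat1 and Airn windows not at all, and 37.4% of all windows hold it at least 1 time. A match is a match of letters only.

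Malat1 was the RNA of the 8 with the highest value in 3 of the 4 columns. Its deposited value was 22.7 and 364 in WT and null nuclei and 9.83 and 136 in WT and null cytoplasms. As deposited, both null values were above both WT values, and each nucleus was above its own cytoplasm. With the column factors divided out, the WT nucleus (81.5) stood slightly above the null cytoplasm (73.3), and each nucleus was still above its own cytoplasm. The gene lies at chr19:5795690-5802672 (GRCm38, minus strand), and its longest transcript covers that span unspliced. Its level stood above or level with 76.3% of the kept genes in WT nuclei and 96.3% in null nuclei, against 23.2% in WT and 75.8% in null cytoplasms. Kept genes are the 14240 that reached 1 in 2 or more of the 4 columns. Among the 790 kept genes that RefSeq names long noncoding, Malat1 was the 76th highest in the WT nucleus, 26th in the null nucleus, 407th in the WT cytoplasm and 115th in the null cytoplasm. Malat1 was thus at or above 90.5% of its class in the WT nucleus, but 48.6% in the WT cytoplasm. The libraries were primed on poly(A) and Malat1 is known to end without an added tail, so these ranks need not follow its amount. The effect of priming on its values was not tested.

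Neat1, at chr19:5824708-5845478 on the same strand as Malat1, was listed at 0 in all 4 columns. That is also so for 414 of the 1661 long noncoding RNA genes of the table (24.9%) and for 4180 of all 23235 genes (18.0%). An exact 0 in such a table can be a failed estimate, so Neat1 is only said to be listed at 0. Miat, at chr5:112213228-112229395, had 0.0467 in WT and 1.97 in null nuclei, and 0.0700 in WT and 0.909 in null cytoplasms. It was therefore low in WT and higher in both null columns, and it did not pass the filter because 1 column alone reached 1.

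Kcnq1ot1, at chr7:143203458-143296549, had 2.08 (WT) and 13.6 (null) in the nuclei and 1.10 (WT) and 3.55 (null) in the cytoplasms. Its columns stood in the same order as those of Malat1, with the null nucleus highest and the WT cytoplasm lowest. Airn, at chr17:12741311-12860136, had 2.58, 18.4, 38.7 and 39.8 in the same column order. As deposited, Airn was the reverse case among the imprinted RNAs, with both cytoplasmic values above both nuclear ones and the cytoplasmic pair nearly equal. With the column factors divided out its values were 9.27, 30.9, 11.2 and 21.5, with the null nucleus highest. Meg3, at chr12:109541001-109571726, had 4.50, 21.2, 19.4 and 16.1, so as deposited the WT nucleus stood lowest. With the column factors divided out its values were 16.2, 35.7, 5.59 and 8.70, and both nuclei stood above both cytoplasms.

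Rian, which lies beyond Meg3 on the same strand at chr12:109603940-109661716 and hosts small nucleolar RNAs and microRNAs, had 0.552 and 1.34 in WT and null nuclei and 1.03 and 0.573 in WT and null cytoplasms. It passed the filter by a narrow margin, through the null nucleus and the WT cytoplasm. H19, at chr7:142575529-142578143, was listed at 0 in both nuclei and the WT cytoplasm and at 0.401 in the null cytoplasm, so no fold is given for it. In all, 5 of the 8 RNAs passed the filter, and 4 of these (Malat1, Kcnq1ot1, Airn and Meg3) were above 1 in every column.

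**Figure D1:**
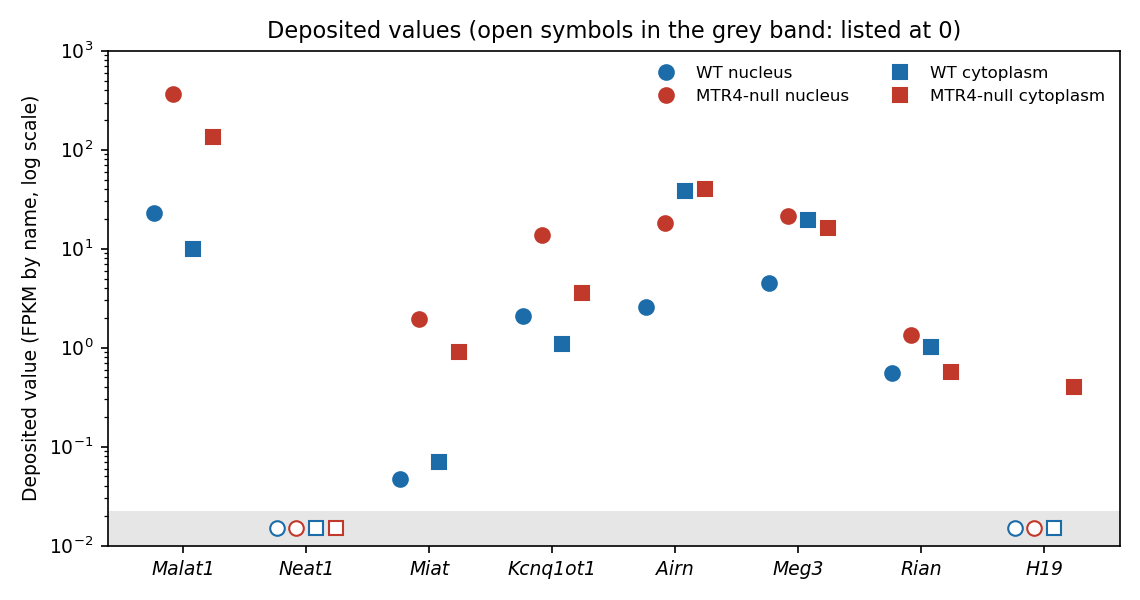
Deposited value of each of the 8 RNAs (vertical axis, log scale) in the 4 columns: circles are nuclei, squares are cytoplasms, blue is WT, red is MTR4-null, and open symbols in the grey band are values listed at 0. Malat1 runs from 9.83 in the WT cytoplasm to 364 in the null nucleus, while the 2 cytoplasmic values of Airn, 38.7 and 39.8, lie almost on each other.

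Ratios between the RNAs within 1 column do not depend on how that column was scaled. In the WT nucleus the order was Malat1, Meg3, Airn, Kcnq1ot1, Rian and Miat, with Malat1 5.05 times Meg3 and Airn 1.24 times Kcnq1ot1. In the null nucleus Malat1 was 17.2 times Meg3, Meg3 was 1.15 times Airn, and Miat stood above Rian. In the WT cytoplasm the order was Airn, Meg3, Malat1, Kcnq1ot1, Rian and Miat, with Airn 1.996 times Meg3 and Meg3 1.97 times Malat1. In the null cytoplasm Malat1 was first again, at 3.41 times Airn. With no replicates, close neighbours such as Airn and Kcnq1ot1 in the WT nucleus (1.24 times), Meg3 and Airn in the null nucleus (1.15 times) or Kcnq1ot1 and Rian in the WT cytoplasm (1.07 times) cannot be placed in order with any error.

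The make-up of the summed value changed most in the cytoplasm. Malat1 held 69.9% of the sum of the 8 in WT and 86.6% in null nuclei, but 14.02% in WT and 68.9% in null cytoplasms. Airn held 55.2% of the sum in WT cytoplasms and 20.2% in null ones, and 7.95% and 4.37% in the nuclei. Meg3 held 13.9% (WT) and 5.04% (null) of the nuclear columns and 27.7% (WT) and 8.17% (null) of the cytoplasmic ones. The ratio of Malat1 to Kcnq1ot1 was 10.9 in WT and 26.8 in null nuclei, and 8.92 in WT and 38.2 in null cytoplasms. The ratio of Meg3 to Rian, neighbours on 1 strand, was 8.15, 15.9, 18.9 and 28.1 in the column order of the table.

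**Figure D2:**
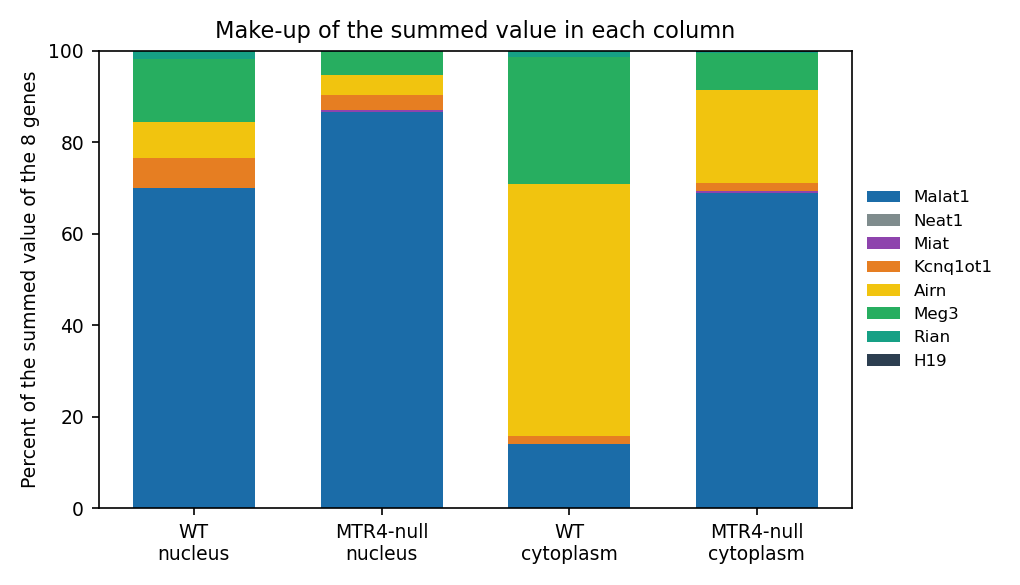
Share of each RNA in the summed deposited value of the 8 (vertical axis, percent) in the 4 columns. Malat1 holds 69.9% and 86.6% in the nuclei and goes from 14.02% in the WT cytoplasm to 68.9% in the null cytoplasm, where Airn goes from 55.2% to 20.2%.

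The comparison of null with WT nuclei asks which RNAs are at another level in the nucleus when MTR4 is missing. Relative to the median gene, Malat1, Kcnq1ot1, Airn and Meg3 were at least 2-fold higher in null, which is 4 of the 5 kept RNAs, and 0 were lower. Of all 14240 kept genes 25.8% were that much higher and 16.2% lower. As deposited the counts were again 4 and 0, beside 46.3% and 3.69% of all kept genes. The median relative log2 difference was 1.50 over the 5 and 0.055 over all kept genes. Of the 790 kept long noncoding RNA genes 57.3% were higher and their median was 1.31, so the count of 4 is read against a class that was itself mostly higher. The filter also keeps genes that reach 1 in the null columns alone. These were not counted apart, in the class or among all kept genes.

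The largest nuclear difference among the 5 was that of Malat1, 2.90 relative to the median gene and 3.95 as deposited, at or above 96.1% of all kept genes and 84.8% of long noncoding ones. Genes with a WT nuclear value within 1.5-fold of that of Malat1 numbered 1806, of which 7.36% were at least 2-fold higher and 99.2% lay at or below Malat1. Airn differed by 1.64 relative to the median gene (2.44 as deposited), Kcnq1ot1 by 1.50 (2.25) and Meg3 by 1.10 (2.01). Within the long noncoding class these 3 were ordinary, at or above 56.6%, 53.9% and 44.9% of its kept genes. Against genes of like WT nuclear value they lay at or above 85.9%, 82.2% and 80.8%. Rian, at 0.12 relative to the median gene and 0.59 as deposited, lay at or above 26.2% of the class and 28.7% of genes of like value. Genes with a WT nuclear value as low as that of Rian were kept only if a null column reached 1. Of these like genes 46.2% were at least 2-fold higher, with a median of 0.89, so this place of Rian was partly set by the filter. Miat, which was not kept, differed by 1.89 (1.50 as deposited), a value that rests on 0.0467 in WT and on the added 1. Under 9 other settings of scale, added value and filter, Malat1 stayed at least 2-fold higher in all 9 (1.998 to 3.95), Kcnq1ot1 and Airn in 7 each and Meg3 in 4. Of the 12 kept granulosa cell markers 2 were higher and 2 lower in null nuclei, and their part was not tested.

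In the cytoplasm, relative to the median gene, Malat1 and Kcnq1ot1 were at least 2-fold higher in null, 2 of the 5 kept RNAs, and 0 were lower. Over all kept genes 24.2% were higher and 18.6% lower. As deposited the same counts of 2 and 0 stood beside 14.9% and 43.7%. Malat1 differed by 4.28 (3.66 as deposited), at or above 98.2% of all kept genes, 92.9% of the long noncoding class and 97.1% of the 1413 genes of like WT cytoplasmic value. Kcnq1ot1 differed by 1.15 (1.11 as deposited) and lay at or above 56.7% of the class, whose median was 0.88. Airn differed by 0.89 relative to the median gene and by 0.038 as deposited, Meg3 by 0.56 and -0.25, and Rian by 0.015 and -0.37. Malat1 stayed at least 2-fold higher in all 9 other settings (3.32 to 4.65) and Kcnq1ot1 in 6 of them. Of 12 kept granulosa cell markers 4 were also higher in null cytoplasms, Wt1 (2.81), Hsd3b1 (2.13), Kitl (1.66) and Amh (1.09), and 1 was lower, Cyp19a1 (-1.33), while Foxl2, not kept, went from 0.117 to 7.10. The part of granulosa cell RNA in the cytoplasmic values of Malat1 and Kcnq1ot1 was not tested. For Airn, Meg3 and Rian the scale of the column sets the reading: their deposited cytoplasmic values were level or slightly lower in null, while the median kept gene's deposited log2 difference was -0.79.

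**Figure D3:**
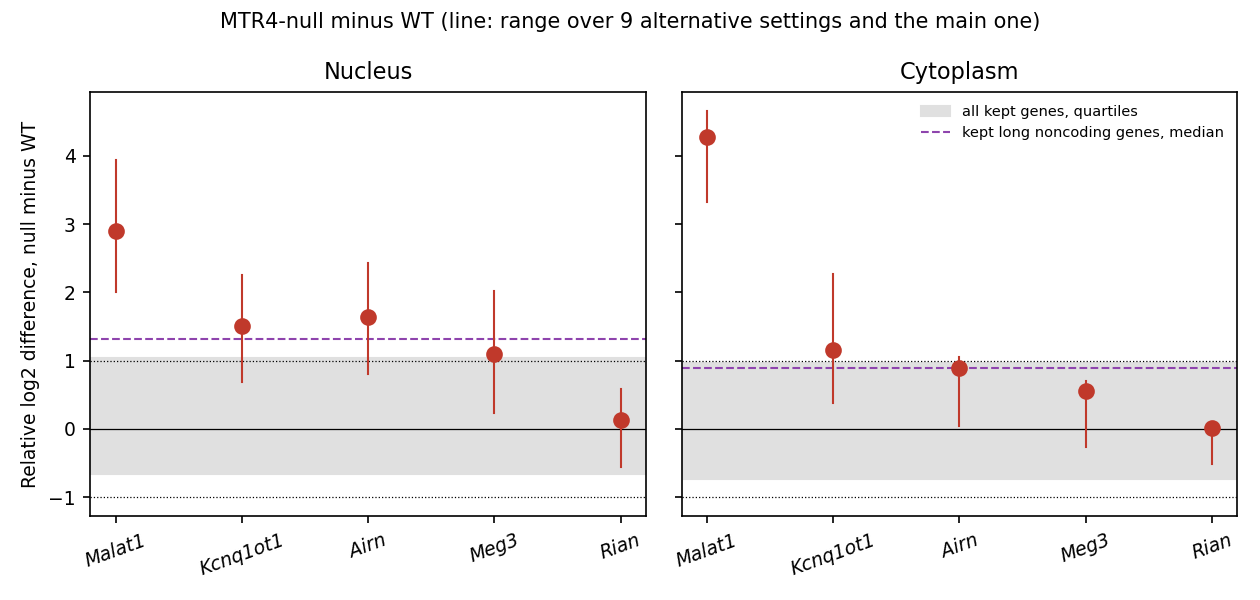
Relative log2 difference of null minus WT (vertical axis) for the 5 kept RNAs in the nucleus (left) and the cytoplasm (right): points are the values of the main setting, lines run over it and 9 other settings, grey is the range between the quartiles of all kept genes, the dashed line is the median of kept long noncoding RNA genes, and dotted lines mark 2-fold. Malat1 lies at 2.90 and 4.28, above the grey band in both; Rian lies at 0.12 and 0.015.

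The comparison of nucleus with cytoplasm within a genotype asks where an RNA lies. Relative to the median gene, Malat1, Kcnq1ot1, Meg3 and Rian were at least 2-fold higher in the nucleus in WT, 4 of the 5 kept RNAs, and 0 were lower, beside 9.73% and 7.46% of all kept genes. In null oocytes the same 4 were higher and 0 lower, beside 12.4% and 8.83%. Of the 790 kept long noncoding RNA genes 20.3% were higher and 7.85% lower in WT, and 31.4% and 6.58% in null. Among the 5 as deposited, 1 was higher (Malat1) and 2 were lower (Airn and Meg3) in WT, beside 1.74% and 91.2% of all kept genes. In null, 2 were higher (Malat1 and Kcnq1ot1) and 1 lower (Airn), beside 2.91% and 71.9%. Malat1 was thus among the few genes that stood 2-fold or more higher in the nucleus, as deposited, in either genotype.

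Malat1 was higher in the nucleus by 4.43 in WT (1.13 as deposited) and by 3.05 in null (1.42), at or above 98.7% and 98.8% of all kept genes. Kcnq1ot1, which stays at its own locus on chromatin, was higher by 2.68 (0.55) in WT and 3.03 (1.68) in null, at or above 97.4% and 98.8%. Meg3 was higher by 1.38 (-1.89) and 1.92 (0.38), at or above 93.9% and 95.5%. The position of these RNAs among all genes does not depend on the factor a column was divided by, apart from the added 1, whereas the sign of the Meg3 difference in WT does. Rian was higher by 1.20 (-0.39 as deposited) and 1.31 (0.57), from values near 1 or below. Under the 9 other settings Malat1 stayed at least 2-fold higher in the nucleus in all 9 for both genotypes, Kcnq1ot1 in 8 for WT and 9 for null, Meg3 in 5 and 6, and Rian in 5 and 4.

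Airn was the exception among the kept RNAs. Its difference of nucleus minus cytoplasm was -0.24 in WT (-3.47 as deposited) and 0.51 in null (-1.07), at or above 41.4% and 74.8% of all kept genes. Within the long noncoding class it lay at or above 33.9% and 53.9%, while Malat1 lay at or above 97.1% and 97.3% and Kcnq1ot1 at or above 92.8% and 97.2%. Meg3 lay at or above 85.8% and 87.0% of the class, and Rian at or above 83.3% and 76.1%. Kcnq1ot1 and Airn are both paternally expressed antisense RNAs, so the pair shared its kind but not its place in the order of the compartments. Reads of Airn and Igf2r, or of Kcnq1ot1 and Kcnq1, cannot be told apart by strand here. By the annotation, 28354 bases of the Airn span (23.9%) overlap Igf2r on the other strand, and all 93092 bases of Kcnq1ot1 lie within Kcnq1 on the other strand.

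**Figure D4:**
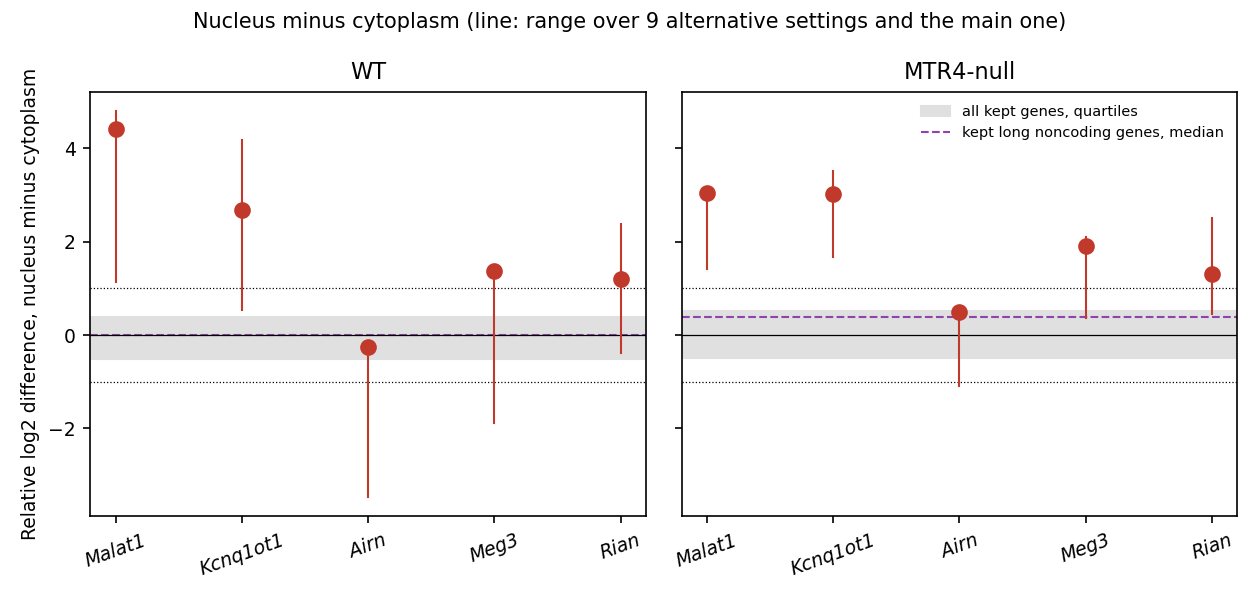
Relative log2 difference of nucleus minus cytoplasm (vertical axis) for the 5 kept RNAs in WT (left) and MTR4-null oocytes (right), drawn with the same points, lines and grey band as the plot of null minus WT. Malat1 lies at 4.43 and 3.05 and Kcnq1ot1 at 2.68 and 3.03, above the grey band, while Airn lies within it at -0.24 and 0.51.

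The change of the nucleus to cytoplasm difference between genotypes was at least 2-fold for Malat1 alone among the 5, at -1.38 relative to the median gene. The count was 0 higher and 1 lower, beside 16.9% and 15.3% of all kept genes, so it is near the background. As deposited, 3 were higher (Kcnq1ot1 at 1.13, Airn at 2.40 and Meg3 at 2.27) and 0 lower, beside 71.7% and 3.32%, and Malat1 stood at 0.29. Relative to the median gene Kcnq1ot1 stood at 0.35, Airn at 0.75, Meg3 at 0.54 and Rian at 0.11. The lower Malat1 value follows from its 2 null-minus-WT differences, 2.90 for nuclei and 4.28 for cytoplasms. The nuclear Malat1 value was nonetheless above the cytoplasmic one in both genotypes, at 364 against 136 as deposited in null.

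The protein-coding genes around each RNA were read next, from lists of the imprinted domains and of the neighbours on the same chromosome. Next to Malat1 and Neat1, 9 of 9 listed genes were kept, of which 3 were at least 2-fold higher in null nuclei and 0 lower, with a median of 0.98. Pola2, a DNA polymerase alpha subunit, had 1639 (WT) and 23006 (null) in the nuclei and 482 (WT) and 740 (null) in the cytoplasms. Dpf2, a chromatin remodelling subunit, had 4.03, 55.8, 116 and 150 in the same order. Slc25a45 was the other gene that was higher, by 1.36 from 0.0542 to 1.23. It reached 1 in the null columns alone, so its call was partly set by the filter. Tigd3, Ltbp3, Ehbp1l1, Frmd8 and Cdc42ep2 lay between -0.78 and 0.99. In the cytoplasm 5 of the 9 were higher and 2 lower, beside 24.2% and 18.6% of all kept genes. Relative nuclear differences of Pola2 (2.72) and Dpf2 (2.62) were thus close in size to the 2.90 of Malat1.

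In the Kcnq1ot1 domain 10 of 12 listed genes were kept, 3 of them higher in null nuclei and 0 lower, with a median of -0.053. The 3 were Ascl2, a trophoblast transcription factor (1.70), Slc22a18 (1.53) and Tssc4 (1.44). Ascl2 reached 1 in the null columns alone, so its call was partly set by the filter. Kcnq1, the potassium channel gene that Kcnq1ot1 lies within, had 10.0 and 18.2 in WT and null nuclei and 137 and 70.5 in WT and null cytoplasms, and differed by -0.22 in the nucleus. The ratio of Kcnq1 to Kcnq1ot1 was 4.82 in WT and 1.34 in null nuclei, and 124 in WT and 19.9 in null cytoplasms. Cdkn1c, the cell cycle inhibitor of the domain, differed by 0.43, and Nap1l4, Osbpl5, Cars, Phlda2 and Cd81 lay between -0.86 and 0.11. The host of the antisense RNA was therefore near the median gene where the RNA itself stood at 1.50.

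In the Airn domain 3 of 5 listed genes were kept, with 0 higher and 0 lower in null nuclei and a median of -0.39. Igf2r, the receptor gene that Airn silences in cis, had 4.48 (WT) and 12.5 (null) in the nuclei and 34.5 (WT) and 57.9 (null) in the cytoplasms. Its relative differences, 0.36 in nuclei and 1.56 in cytoplasms, stand against 1.64 and 0.89 for Airn. The ratio of Igf2r to Airn was 1.74 in WT and 0.678 in null nuclei, and 0.891 and 1.46 in the cytoplasms. Mas1 differed by -0.39 and Slc22a3 by -0.64 in the nucleus. In the cytoplasm 1 of the 3 was higher (Igf2r) and 1 lower (Mas1, -1.65).

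In the Meg3 and Rian domain 2 of 6 listed genes were kept. Dio3, the enzyme that inactivates thyroid hormone at the far end of the domain, had 0.0531 and 10.9 in WT and null nuclei and 6.31 and 43.3 in WT and null cytoplasms. That is a relative difference of 4.02 in the nucleus, larger than the 1.10 of Meg3. Wdr25 differed by -0.92. Dlk1, the paternally expressed growth factor gene that opens the domain, was listed at 0 in both nuclei and at 0.140 and 0.247 in the WT and null cytoplasm. Mirg, the third long RNA of the maternal strand, had 0 in WT and 0.789 in null nuclei, and 1.29 in WT and 0 in null cytoplasms.

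In the H19 domain 5 of 6 listed genes were kept, 1 higher and 2 lower in null nuclei, with a median of -0.77. Igf2, the growth factor gene that shares its enhancers with H19, had 0.257 (WT) and 2.67 (null) in the nuclei and 2.78 (WT) and 4.02 (null) in the cytoplasms, a nuclear difference of 1.51. Lsp1 (-2.28) and Ins2 (-1.02) were lower, Mrpl23 stood at -0.77 and Th at 0.37. In the cytoplasm 0 were higher and 4 of the 5 lower, beside 24.2% and 18.6% of all kept genes. Over the 5 loci 3 of 9, 3 of 10, 0 of 3, 1 of 2 and 1 of 5 listed neighbours were at least 2-fold higher in null nuclei, beside 25.8% of all kept genes, and 0, 0, 0, 0 and 2 were lower, beside 16.2%. The higher counts include Slc25a45 and Ascl2, which were kept through the null columns alone.

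**Figure D5:**
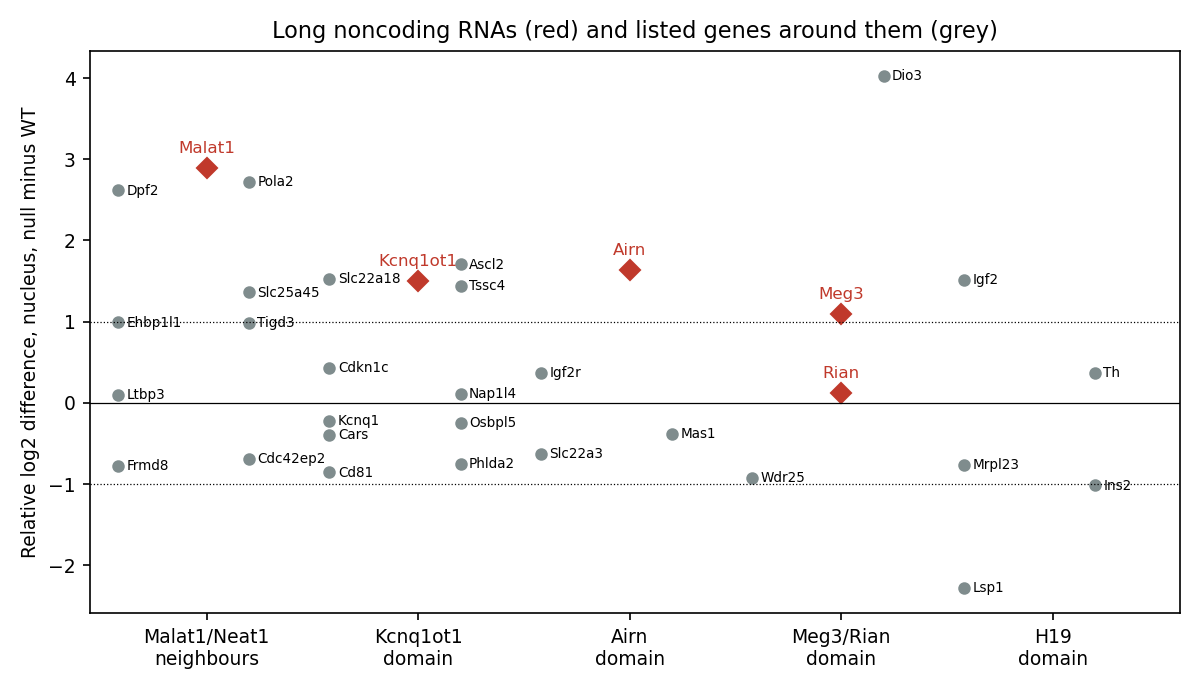
Relative log2 difference of null minus WT nucleus (vertical axis) for the kept RNAs (red diamonds) and the kept listed genes of each locus (grey points, all but 1 of them drawn). Kcnq1ot1 at 1.50 and Airn at 1.64 stand above the genes they overlap, Kcnq1 at -0.22 and Igf2r at 0.36, while Pola2 and Dpf2 stand near Malat1 and Dio3 above Meg3.

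Other long noncoding RNAs of the nucleus were read beside the whole class, of whose kept genes 57.3% were higher in null nuclei (median 1.31) and 47.3% in null cytoplasms (median 0.88). Of 9 found by symbol, 7 were kept, 5 higher and 0 lower in the nucleus (median 1.39), with 5 higher and 1 lower among cytoplasmic values (median 1.25). Xist, which coats the inactive X chromosome, had 0.528 and 9.37 in WT and null nuclei and 0.246 and 16.1 in WT and null cytoplasms. The largest nuclear differences were those of 6720401G13Rik (2.97), Dleu2 (2.56) and Xist (2.53), and the smallest that of Pvt1 (-0.89). Xist and 6720401G13Rik reached 1 in the null columns alone, so their place among the higher RNAs was partly set by the filter. Of 8 other imprinted long noncoding RNAs 3 were kept, 2 of them higher and 0 lower in the nucleus (median 1.20) and 2 higher in the cytoplasm (median 1.02). These were Ipw (2.42), Nespas (1.20) and Peg3as (0.047) in the nucleus. Ipw passed the filter through the null nucleus (2.58) and the WT cytoplasm (1.64) and was listed at 0 in the other columns.

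Protein partners were described from lists by role, each count beside the 25.8% higher and 16.2% lower of all kept genes in nuclei and 24.2% and 18.6% in cytoplasms. Of 17 paraspeckle proteins, the partners of Neat1, all 17 were kept, 6 higher and 2 lower in null nuclei (median 0.10), with Taf15 (1.96), Pspc1 (1.74) and Cpsf7 (1.74) highest and Sfpq (-1.21) lowest. In the cytoplasm 7 were higher and 0 lower. The nuclear shares of this list, 35.3% higher and 11.8% lower, were not far from those of all kept genes. Of 21 nuclear speckle proteins, which share their compartment with Malat1, 3 were higher and 2 lower in the nucleus (median 0.17), with Cdc5l (2.30), Srsf11 (1.39) and Srsf6 (1.19) highest and the kinase gene Clk1 (-2.05) lowest. In the cytoplasm 6 of these 21 were higher and 1 lower. Of 12 genes for the enzymes that cut the 3' ends of Malat1 and Neat1 (RNase P and RNase Z) and the methyltransferase Mettl16, 1 was higher and 0 lower in the nucleus, with Rpp25 at 1.71, from 0 to 1.35, and Rpp38 at -0.96. Rpp25 reached 1 in the null columns alone, so its call was partly set by the filter. In the cytoplasm 1 of the 12 was higher and 2 were lower.

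Genes that set and keep imprints stood near the median gene in the nucleus, and their counts are read beside the same shares of all kept genes. Of 10, 0 were higher and 0 lower (median -0.14), with Kdm1b, the oocyte histone demethylase needed for some maternal imprints, at 0.92, Trim28 at 0.57, Dnmt1 at 0.35 and the de novo methyltransferase gene Dnmt3a lowest at -0.52. In the cytoplasm 1 was higher (Kdm1b, 1.40) and 2 were lower (Dnmt3a at -1.50 and Dnmt3l at -1.44). Imprinted protein-coding genes elsewhere differed in both directions, with 7 of 18 higher and 3 lower in the nucleus and a median of 0.70. Nnat (3.85), Ndn (3.18) and Peg10 (1.30) were highest and Mcts2 (-3.22) was lowest. Peg10 and Zim1 (1.19), both among the higher genes, were kept through the null columns alone, so their calls were partly set by the filter. In the cytoplasm 5 of the 18 were higher and 3 lower. The higher share in nuclei, 38.9%, stood above the 25.8% of all kept genes. The lower share in nuclei (16.7%) and the cytoplasmic shares (27.8% higher and 16.7% lower) were close to those of all kept genes.

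For each kept RNA the nearest kept genes were found by Euclidean distance over the 4 relative log2 values. Nearest to Malat1 was Acmsd, an enzyme gene of tryptophan breakdown, at a distance of 0.447, with deposited values of 16.8 in WT and 346 in null nuclei, and 9.13 in WT and 144 in null cytoplasms. The next was the noncoding 2700038G22Rik at 0.790, so Malat1 had no gene as close as Airn had in Mapk8ip3 (0.133) and Hcst (0.239). Nearest to Kcnq1ot1 were the noncoding D830005E20Rik (0.360) and Gdf3 (0.443). Nearest to Meg3 were A430107P09Rik (0.369) and Nsl1 (0.540), and nearest to Rian were Ppfia4 (0.278) and Vamp5 (0.410). With 4 columns, likeness of this kind describes levels only.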

How the data were processed

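Polyadenylated RNA of nuclei and cytoplasms parted from mouse oocytes was measured in WT and MTR4-null groups. TopHat2 2.1.1, Cufflinks 2.2.1 and the build mm9 appear in the submitters' processing notes, without roles or settings. The deposited values are FPKM by name, but the authors' 4 columns are not on a common scale, so they were treated as a score with unknown scaling. In the WT nucleus 87.6% of values read as a mean of 2 printed numbers after division by 0.125, against 23.5% without it, and in the null nucleus 97.6% did so after division by 0.5, against 74.6%. The averaging behind the columns was not given in the sources used here, and neither was the day of the WT columns or whether a column holds all libraries of its group.

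Genes that reached 1 in 2 or more of the 4 columns were kept (14240 of 23235, 5 of the 8 RNAs). Columns were divided by their median ratio to the geometric mean column over 13328 genes above 0 in every column; this divided the nuclear columns by 0.279 (WT) and 0.594 (null) and the cytoplasmic ones by 3.47 (WT) and 1.85 (null). After 1 was added, log2 differences of at least 1 were counted as 2-fold. A fit over single libraries had been planned and could not be made, since the table has 1 column per genotype and compartment, so no p-value is given. The steps were tested on simulated data without genes as low as most of the 8 RNAs in WT. They were therefore not tested for values near the added 1.

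Named genes were the 8 RNAs, Skiv2l2, up to 3 kept genes with the largest and 1 with the smallest nuclear difference of each list, all kept genes of the domains and neighbours but 1, and the 2 nearest genes of each kept RNA. Dnmt3l, Zim1, Dlk1, Mirg and the granulosa genes Inha, Cyp19a1, Wt1, Hsd3b1, Kitl, Amh and Foxl2 were named beyond that rule, after their values were seen. That gene and 1 transcript stretch are not reported here. The RNAs and the lists were chosen with earlier results of these data known. Gene classes came from RefSeq, matched by symbol for 22990 of 23235 genes, transcripts and gene positions from GENCODE M21, and start regions from RefSeq GRCm38.p6, which matched 6 of the 8 RNAs. Differences were recomputed under 9 other settings. Python 3.11.15, pandas 2.3.3, numpy 2.4.6 and matplotlib 3.10.9 were used.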

Additional observations from a re-analysis of the deposited data

How the results depend on the processing

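Of 9 other settings, the scale of the columns moved the most. With the values as deposited, nucleus minus cytoplasm in WT reversed for Meg3 (-1.89) and Rian (-0.39), and the change of that difference between genotypes reversed for Malat1 (0.29). The counts then were 1 higher and 2 lower for nucleus against cytoplasm in WT, 2 and 1 in null, and 3 and 0 for the change of the difference. With nuclear factors read from the digits of the columns and cytoplasmic factors assumed, 1 RNA was higher in null nuclei. Of the RNAs, 2 were then higher and 1 lower in the null nucleus against its cytoplasm, and 2 were lower for the change of the difference. For the null cytoplasm the digits read alike under every factor tried, and for the WT cytoplasm nearly alike under 1 and 0.5. Comparisons that involve a cytoplasm therefore rest on assumed factors in this setting and the next. With the same factors but 0.5 for the WT cytoplasm, the Meg3 difference in WT reversed to -0.10, 1 RNA was higher in null nuclei, and 2 were higher and 1 lower in the nucleus against the cytoplasm, in WT as in null. After quantile normalization 1 RNA was higher in null cytoplasm. With 5 added in place of 1, the counts were 1 higher in null cytoplasm, 2 higher in the WT nucleus against its cytoplasm and 0 lower for the change of the difference. Without a filter, Miat entered as 1 higher for that change. The cause of these moves was not tested beyond the settings themselves. Of 270 single values recomputed, 213 kept their side of 2-fold, of which 17, all under 2-fold, changed sign. Another 38 kept their sign but fell short of 2-fold, 11 newly passed it with the same sign, 4 passed it with the opposite sign, and 4 that had passed it reversed. Among the called values, Malat1 kept 2-fold in all 9 settings for null against WT in both compartments and for nucleus against cytoplasm in both genotypes (lowest 1.13). The Airn difference in the cytoplasm ranged from 0.038 to 1.06.

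No paired analysis was possible because the table has 1 column per genotype and compartment, with no replicate numbers. For the same reason leaving out each replicate and the replicate block, both planned, were not run. Differences can be set neither against the spread between libraries nor against read depth, which is unknown. Values near or below 1 (Rian, Miat, Kcnq1ot1 in the WT cytoplasm) depend on the added 1. Genotype cannot be told apart from age.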
